A study of Mus musculus with 12 samples.

Results

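Opioid peptides and their receptors were followed at the mRNA level in the brains of control mice and of mice under chronic unpredicted mild stress (CUMS), given water or krill oil. The 7 genes were chosen by name from the 55385 genes of the expression table, and they are 3 peptide precursors (Penk, Pdyn and Pnoc) and 4 receptors (Oprm1, Oprd1, Oprk1 and Oprl1). Penk was the most abundant of them and averaged 56.5 FPKM in control mice on water and 301 FPKM in stressed mice on water, a ratio of 5.32, although the adjusted p of limma was 0.278. Pdyn and Oprk1 were highest in the same pair of stressed brains as Penk, while Oprd1 was lowest in the stressed group on water. Marker lists of the striatum and of the hypothalamus were also highest in that pair of brains, and their values are given beside those of the genes.

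Opioid peptides are cut from larger precursor proteins in the secretory pathway of neurons. Penk encodes the precursor of the enkephalins, Pdyn that of the dynorphins and neoendorphins, and Pnoc that of nociceptin. The peptides act on receptors coupled to inhibitory G proteins, which lower cyclic AMP, open inwardly rectifying potassium channels and close voltage-gated calcium channels. Oprm1, Oprd1 and Oprk1 encode the mu, delta and kappa receptors, and Oprl1 encodes the nociceptin receptor. In the striatum, Penk marks the projection neurons that carry the dopamine receptor Drd2, and Pdyn those that carry Drd1. The system is known for its part in pain, reward and the response to stress.

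All mice were WT males of the C57/BL6J strain that were 8 weeks old when purchased. The C_W mice had water and no stress, and the C_O mice had no stress but krill oil, for 5 weeks at a daily dose of 200 mg/kg. The MS_W mice had CUMS for 4 weeks with water, and the MS_O mice had the same CUMS and the same krill oil. CUMS combined mild stressors such as social isolation, restraint, tilted or damp cages and strobe light, and krill oil was set against water and not against another oil. Each group had 3 mice, each brain gave 1 poly(A) RNA library, and a library is named by its group and mouse number (MS_W95). Expression was given as FPKM, the fragments counted on a gene relative to its exon length and to the mapped fragments of the library, so that levels of different genes can be compared per length. A log2FC is the difference of the group means of log2(FPKM + 1), with its standard error (SE) from limma, and adjusted p values follow Benjamini and Hochberg over the 21393 genes that averaged 0.1 FPKM or more. To be called a differentially expressed gene (DEG) by the criteria of the study, a gene needs p under 0.05 before adjustment and group means of FPKM that differ by more than 1 on the log2 scale. Here that p is from limma, while the study used Ballgown, so the calls are not those of the study. Means are given with the SD of 3 mice.

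The libraries held 50912906 to 75678721 estimated counts each. A pair of libraries, C_O72 and MS_W95, stood out by region markers. Their mean log2(FPKM + 1) over 9 cerebellum markers was 4.74 and 6.41, against 0.802 to 1.30 in the other 10, and over 9 hindbrain markers 2.47 and 2.13, against 0.00855 to 0.0698. In each of the other 10 libraries 8 or 9 of the 9 hindbrain markers were below 0.1 FPKM, although the tissue was described as the whole brain. The cortex score was 2.19 in C_O72 and 2.16 in MS_W95, against 2.99 to 4.71 elsewhere, and the pituitary hormone gene Gh had 47.3 FPKM in C_O72 and at most 0.353 in any other library. Results that rest on these libraries are therefore given for all 12 libraries and for the 10 without them, a choice made after seeing the data. In the 10 libraries, C_O and MS_W hold 2 mice each, and the spread of these groups was taken as that of the others.

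In the C_W vs. MS_W comparison of the 12 libraries, 5 of the 6 members that could be tested had a higher level in MS_W. None passed the adjusted threshold in limma (0.00467% of all tested genes did), 3 had an unadjusted p under 0.05 (10.5% of all), and 2 met the DEG criteria (4.59% of all). By the other tools, 1 member passed the adjusted threshold in DESeq2 and 0 in edgeR. The 3 members with an unadjusted p under 0.05 were Penk and Oprk1, which were higher, and Oprd1, which was lower. The groups did not overlap for 2 members, Penk and Pnoc, while 24.6% of all tested genes had groups without overlap. The median log2FC of the 6 members was 0.59, and that of all tested genes was 0.06. Without C_O72 and MS_W95, 3 members passed the adjusted threshold (1.15% of all genes did) and met the DEG criteria (5.81% of all), and these were Penk, Pdyn and Oprk1, each higher in MS_W. With Pnoc, 4 members then had an unadjusted p under 0.05 in limma (15.4% of all) and groups without overlap (38.8% of all). For 3 mice against 3 the smallest p that an exact permutation test (two-sided) allows is 0.1.

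In C_O vs. MS_O no member met the DEG criteria (3.57% of all tested genes did), none had an unadjusted p under 0.05 in limma (8.88% of all), and only Penk had groups without overlap (12.2% of all). In C_W vs. C_O no member met the criteria (1.76% of all), none had an unadjusted p under 0.05 in limma (3.55% of all), and again only Penk had groups without overlap (9.42% of all). In MS_W vs. MS_O, Oprd1 alone met the criteria (2.81% of all) and had an unadjusted p under 0.05 in limma (6.09% of all), and 2 members, Oprd1 and Pnoc, had groups without overlap (12.3% of all). Neither limma, edgeR nor DESeq2 put a member past the adjusted threshold in these 3 comparisons of 12 libraries, as did 0.00467%, 0.0% and 0.00467% of all tested genes in limma. In the 10 libraries the members' counts were higher in MS_W vs. MS_O, where Penk, Pdyn, Pnoc and Oprk1 were lower in MS_O with an unadjusted p under 0.05 in limma (8.54% of all). These 4 and Oprd1 made 5 members without overlap (22.3% of all), 2 members, Pdyn and Oprk1, met the criteria (3.36% of all), Oprd1 no longer did, and 0 passed the adjusted threshold (0.271% of all). Penk was the 1 member with an unadjusted p under 0.05 in limma in C_O vs. MS_O (13.6% of all) and in C_W vs. C_O (4.06% of all) of the 10 libraries, and it met the criteria in the latter (1.64% of all) but not in the former, where 0 members did (4.28% of all). Groups without overlap were found for Penk in C_O vs. MS_O (26.8% of all) and for Penk and Pdyn in C_W vs. C_O (19.3% of all), and no member passed the adjusted threshold in either (0.014% and 0.00467% of all). These comparisons share groups with each other and with C_W vs. MS_W, so their results are not independent.

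**Figure D1:**
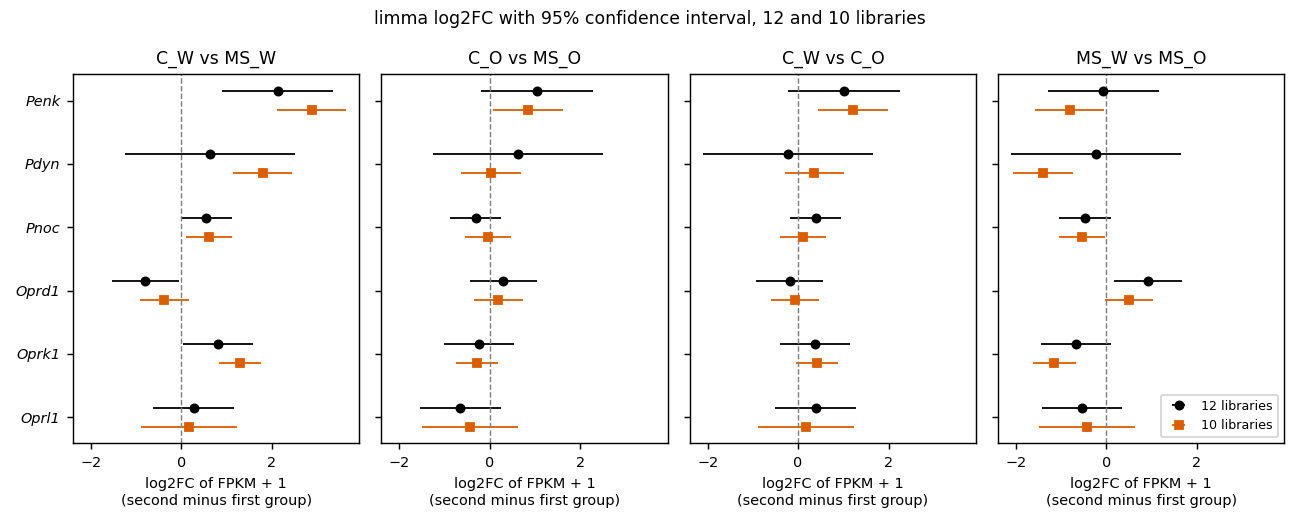
log2FC of the 6 tested members (x axis, difference of mean log2(FPKM + 1), second minus first group) in the 4 pairwise comparisons, with 95% confidence intervals from limma for 12 libraries (black circles) and for the 10 libraries without C_O72 and MS_W95 (orange squares). In C_W vs. MS_W the interval of Penk runs from 0.90 to 3.36 for 12 libraries and from 2.10 to 3.65 for 10, and the interval of Pdyn spans 0 for 12 libraries only.

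The precursor genes carry repeats that become the peptides, and a few of these are shown because they set the 3 precursors apart at the sequence level. The reading frame of Penk (ENSMUSG00000045573, chr4:4133531-4138819 on the minus strand of GRCm38, 804 coding bases) holds 7 in-frame copies of the opioid core TANGGNGGNTTN, all in exon 2 of 2. In 6 of them the fifth codon is ATG, as in met-enkephalin, and in 1 it is CTG, as in leu-enkephalin. Pdyn (ENSMUSG00000027400, chr2:129686565-129699833, minus strand, 744 coding bases) holds 3 copies, all in exon 4 of 4, with CTG or TTG as the fifth codon. Pnoc (ENSMUSG00000045731, chr14:65400673-65425472, minus strand, 561 coding bases) holds 1 copy of TTNGGNGGNTTN in exon 3 of 4. The sequences below are from the GENCODE M21 transcripts, 5′ to 3′ on the coding strand, and the capitals mark the core and the fifth codon after it.
Penk unit 1, chr4:4134328-4134354: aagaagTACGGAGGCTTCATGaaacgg
Penk unit 6, chr4:4133935-4133961: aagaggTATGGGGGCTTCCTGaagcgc
Penk unit 7, chr4:4133842-4133868: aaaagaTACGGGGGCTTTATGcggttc
Pdyn unit 1, chr2:129688232-129688258: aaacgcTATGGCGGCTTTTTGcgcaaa
Pdyn unit 2, chr2:129688124-129688150: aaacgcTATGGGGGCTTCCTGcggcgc
Pdyn unit 3, chr2:129688067-129688093: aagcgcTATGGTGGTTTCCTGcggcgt
Pnoc unit 1, chr14:65404872-65404898: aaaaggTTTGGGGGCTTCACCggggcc
Read in frame on the coding strand only, TANGGNGGNTTN occurred in 85 of 21792 mouse coding sequences (0.39%). Among them 4 held 3 or more copies, which were Penk, Pdyn and the keratin-associated genes Krtap19-2 and Krtap19-4. TTNGGNGGNTTN occurred in 175 (0.803%).

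Penk, the enkephalin precursor, had the widest range in FPKM. It stood at 79.1, 51.7 and 38.8 FPKM in C_W1, C_W64 and C_W70, at 90.2, 181 and 82.8 FPKM in C_O15, C_O30 and C_O72, at 349, 468 and 84.9 FPKM in MS_W31, MS_W75 and MS_W95, and at 229.7, 237 and 221 FPKM in MS_O13, MS_O46 and MS_O78. All C_W libraries were below all others, MS_W31 and MS_W75 were the highest, and MS_W95 was within the range of C_O. The group means followed the order MS_W (301 ± 196), MS_O (229 ± 7.84), C_O (118 ± 54.7) and C_W (56.5 ± 20.6 FPKM), and MS_W overlapped both MS_O and C_O. Every MS_O brain was above every C_O brain and every C_O brain was above every C_W brain, the latter by a small margin (82.8 against 79.1 FPKM).

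The log2FC of Penk was 2.13 (SE 0.555) in C_W vs. MS_W, with an unadjusted p of 0.00304 and an adjusted p of 0.278 in limma. The adjusted p ran from 0.00328 with DESeq2 to 0.661 without C_W70 over the alternatives. Leaving out MS_W95 gave a log2FC of 2.88 with an adjusted p of 0.0165, and the 10 libraries gave 2.88 with 0.0082. For C_O vs. MS_O the log2FC was 1.04 (SE 0.555, unadjusted p = 0.088 in limma), and for C_W vs. C_O it was 1.02 (SE 0.555, unadjusted p = 0.0957). All 7 markers of the olfactory bulb were also higher in MS_O than in C_O without overlap (12.2% of all tested genes in both directions), with a median log2FC of 2.53. Their part in the difference of Penk was not tested. In MS_W vs. MS_O the log2FC of Penk was -0.07 (SE 0.555), and it turned to 0.20 without MS_W31, to 0.41 without MS_W75 and to -0.82 without MS_W95. Penk shares 233 exonic bases with A830012C17Rik on the other strand, and the library kit marked strand, but whether the counting used it is not given in the sources used here.

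**Figure D2:**
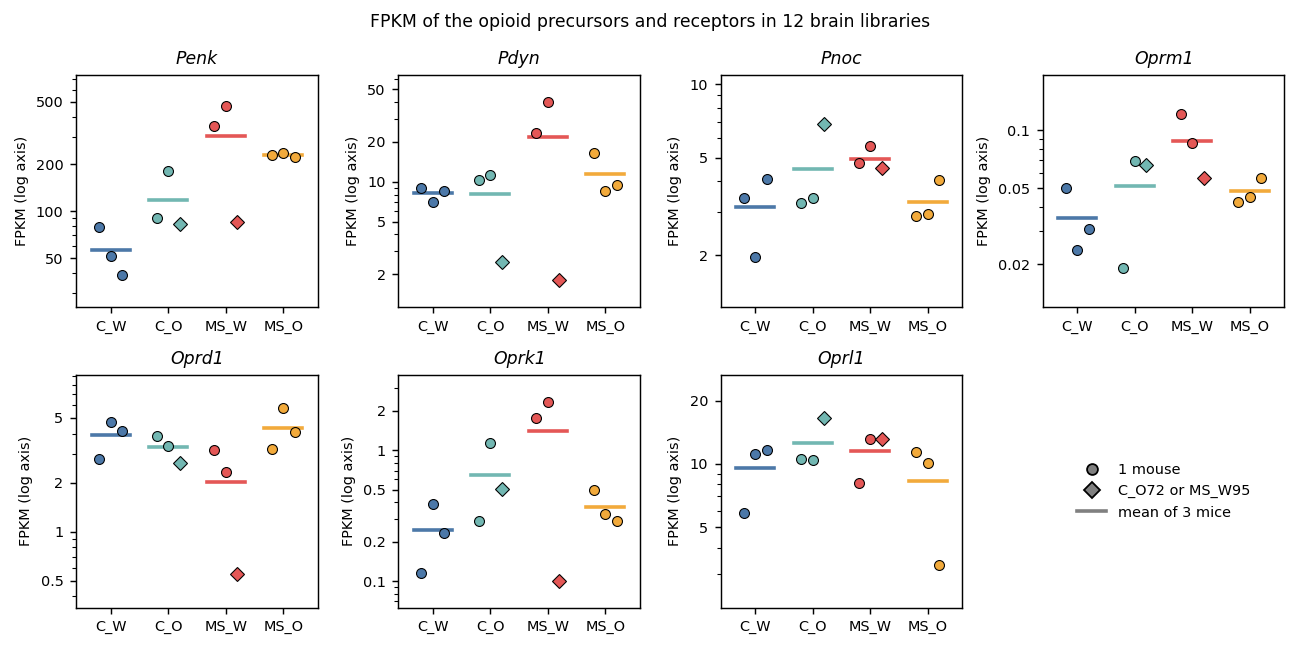
FPKM (y axis, log scale) of the 3 precursors and 4 receptors in each of the 12 brains, by group (x axis). Points are mice, diamonds are C_O72 and MS_W95, and bars are the arithmetic means of 3 mice. Penk lies between 38.8 and 79.1 FPKM in C_W and between 221 and 237 FPKM in MS_O, and the MS_W diamond lies far below the other MS_W points for Penk, Pdyn, Oprd1 and Oprk1.

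Pdyn, the dynorphin precursor, lay between 7.09 and 16.5 FPKM in 8 of the 12 brains. Its level was 9.00, 7.09 and 8.57 FPKM in C_W1, C_W64 and C_W70, and 10.3, 11.2 and 2.47 FPKM in C_O15, C_O30 and C_O72. In MS_W31, MS_W75 and MS_W95 it was 23.5, 40.4 and 1.80 FPKM, and in MS_O13, MS_O46 and MS_O78 it was 16.5, 8.52 and 9.45 FPKM. The pair MS_W31 and MS_W75 held the highest values and the pair MS_W95 and C_O72 the lowest, so that the MS_W group (21.9 ± 19.4 FPKM) spanned all the others. Within MS_W, the level of MS_W95 was 0.0562 of the mean of the other pair (32.0 FPKM).

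The log2FC of Pdyn in C_W vs. MS_W was 0.63 (SE 0.846, adjusted p = 0.784 in limma) for 12 libraries, -0.15 without MS_W75 and 1.80 (SE 0.288, adjusted p = 0.0297) for 10 libraries. In MS_W vs. MS_O it was -0.23 (SE 0.846, adjusted p = 0.965 in limma) for 12 libraries, 0.54 without MS_W75, 0.16 without MS_W31 and -1.40 (SE 0.288, adjusted p = 0.151) for 10. Over the alternatives the adjusted p ran from 0.0297 to 1 for C_W vs. MS_W and from 0.151 to 1 for MS_W vs. MS_O. Krill oil without stress gave a log2FC of -0.23 in C_W vs. C_O, and 0.36 without C_O72. The direction of Pdyn thus rested on single libraries in each of these comparisons.

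Pnoc, the nociceptin precursor, varied less, with a ratio of 3.50 between the highest and lowest library. Its FPKM was 3.43, 1.96 and 4.08 in C_W1, C_W64 and C_W70, 3.28, 3.42 and 6.84 in C_O15, C_O30 and C_O72, 4.74, 5.58 and 4.55 in MS_W31, MS_W75 and MS_W95, and 2.88, 2.93 and 4.04 in MS_O13, MS_O46 and MS_O78. The 3 MS_W brains were above all C_W and all MS_O brains, and C_O72 held the highest value of all. The log2FC was 0.55 (SE 0.258, unadjusted p = 0.0574, adjusted p = 0.486 in limma) in C_W vs. MS_W and -0.48 (SE 0.258, unadjusted p = 0.0907, adjusted p = 0.833) in MS_W vs. MS_O. Pnoc was the only precursor for which MS_W95 lay close to the other MS_W brains, at 0.882 of their mean.

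The shares of the 3 precursors in their summed FPKM are given without a test. Penk made up 75.4% to 86.4% of the summed FPKM of the 3 precursors in C_W, 86.9% to 92.5% in C_O, 91.1% to 93.0% in MS_W and 92.2% to 95.4% in MS_O. All brains of the other 3 groups were above all C_W brains in this share, the nearest by a small margin (86.9% against 86.4%). The share of Pnoc was 3.22% to 7.92% in C_W and 1.16% to 1.72% in MS_O, without overlap. It was 1.26%, 1.08% and 4.99% in MS_W31, MS_W75 and MS_W95, and 3.16%, 1.75% and 7.43% in C_O15, C_O30 and C_O72.

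The receptor genes are related to each other and were all measured below the precursor Penk. In pairwise alignments of their coding sequences, 64.7% (Oprk1 and Oprl1) to 70.6% (Oprm1 and Oprd1) of the aligned bases were identical. Their order of mean FPKM over the 12 libraries was Oprl1 (10.5), Oprd1 (3.40), Oprk1 (0.668) and Oprm1 (0.0556). Oprl1 made up 42.6% to 94.9% and Oprd1 3.93% to 52.9% of the summed receptor FPKM of a library. The summed FPKM was 7.77 to 19.9 for the receptors and 51.4 to 514 for the precursors.

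Oprm1, the mu receptor gene (ENSMUSG00000000766, chr10:6758506-7038198 on the plus strand), was close to the limit of measurement. With 14 to 64 estimated counts per library it did not reach the mean of 0.1 FPKM and was not tested. Its FPKM was 0.0499, 0.0237 and 0.0308 in C_W1, C_W64 and C_W70, 0.0191, 0.0695 and 0.0657 in C_O15, C_O30 and C_O72, 0.122, 0.0862 and 0.0564 in MS_W31, MS_W75 and MS_W95, and 0.0425, 0.0448 and 0.0566 in MS_O13, MS_O46 and MS_O78. All MS_W brains were above all C_W brains, and MS_W95 lay within the ranges of C_O and MS_O. Without the filter on low values, the log2FC in C_W vs. MS_W was 0.07 (SE 0.0246, unadjusted p = 0.0171, adjusted p = 0.760 in limma), on a scale whose pseudocount of 1 is far above its level. Oprm1 then met the DEG criteria, with a log2 ratio of mean FPKM of 1.34, while Oprk1 no longer did (unadjusted p = 0.0625), so that the count stayed at 2. The expression table lists 31 transcripts of this gene, and 96 of its 8037 exonic bases in GENCODE M21 are shared with Ipcef1 on the other strand.

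Oprd1, the delta receptor gene (ENSMUSG00000050511, chr4:132110726-132144486, minus strand), had its lowest group mean in MS_W. The level was 2.80, 4.75 and 4.19 FPKM in C_W1, C_W64 and C_W70, and 3.88, 3.36 and 2.66 FPKM in C_O15, C_O30 and C_O72. It was 3.17, 2.34 and 0.547 FPKM in MS_W31, MS_W75 and MS_W95, and 3.21, 5.76 and 4.11 FPKM in MS_O13, MS_O46 and MS_O78. MS_W95 was the lowest of all libraries, at 0.199 of the mean of the other MS_W brains, and all MS_O brains were above all MS_W brains, the nearest by 3.21 against 3.17 FPKM. Oprd1 averaged 2.02 ± 1.34 FPKM in MS_W and 4.36 ± 1.29 FPKM in MS_O, a ratio of 2.16.

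In MS_W vs. MS_O the log2FC of Oprd1 was 0.92 (SE 0.335, unadjusted p = 0.0201, adjusted p = 0.790 in limma), and in C_W vs. MS_W it was -0.80 (SE 0.335, unadjusted p = 0.0373, adjusted p = 0.454). For 10 libraries these were 0.50 (SE 0.234, unadjusted p = 0.0656, adjusted p = 0.616) and -0.38 (SE 0.234, unadjusted p = 0.145, adjusted p = 0.490), so that both were smaller without C_O72 and MS_W95. The adjusted p over the alternatives ran from 0.280 to 1 for MS_W vs. MS_O and from 0.256 to 0.904 for C_W vs. MS_W. The remaining comparisons of Oprd1 gave a log2FC of 0.30 (C_O vs. MS_O) and -0.18 (C_W vs. C_O), both within the SE of 0.335.

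Oprk1, the kappa receptor gene (ENSMUSG00000025905, chr1:5588466-5606131, plus strand), had the largest ratio between libraries, 23.5. Its FPKM was 0.116, 0.390 and 0.235 in C_W1, C_W64 and C_W70, and 0.291, 1.14 and 0.506 in C_O15, C_O30 and C_O72. It was 1.76, 2.36 and 0.101 in MS_W31, MS_W75 and MS_W95, and 0.501, 0.324 and 0.291 in MS_O13, MS_O46 and MS_O78. MS_W31 and MS_W75 were above all other libraries and MS_W95 was below all of them, so MS_W (1.41 ± 1.17 FPKM) overlapped every group. These values rest on 67 to 1258 estimated counts.

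For Oprk1 the log2FC was 0.80 (SE 0.349, unadjusted p = 0.0429, adjusted p = 0.465 in limma) in C_W vs. MS_W and -0.66 (SE 0.349, unadjusted p = 0.0851, adjusted p = 0.829) in MS_W vs. MS_O. In the 10 libraries it was 1.29 (SE 0.206, adjusted p = 0.0288) and -1.15 (SE 0.206, adjusted p = 0.0889), with MS_W above C_W and MS_O without overlap. The ranges of the adjusted p over the alternatives were 0.0222 to 0.939 and 0.0889 to 1. At this low level the log2FC understates the ratio of mean FPKM, which was 5.70 for MS_W against C_W and 0.264 for MS_O against MS_W.

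Oprl1, the nociceptin receptor gene (ENSMUSG00000027584, chr2:181715016-181720985, plus strand), was the most abundant receptor. It had 5.81, 11.2 and 11.6 FPKM in C_W1, C_W64 and C_W70, and 10.6, 10.4 and 16.6 FPKM in C_O15, C_O30 and C_O72. In the stressed brains it had 8.10, 13.2 and 13.2 FPKM in MS_W31, MS_W75 and MS_W95, and 11.5, 10.2 and 3.31 FPKM in MS_O13, MS_O46 and MS_O78. The 4 groups overlapped each other, and C_O72 and MS_O78 were the extremes. In no pairwise comparison was the log2FC of Oprl1 larger than 0.65 in size (C_O vs. MS_O, -0.65, SE 0.402, adjusted p = 0.661 in limma), and the 95% confidence interval of C_W vs. MS_W ran from -0.62 to 1.16.

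Whether the difference with CUMS itself differed with krill oil was tested by the interaction of both. Of the 6 tested members, 2 met the DEG criteria in the interaction (4.74% of all tested genes did), the same 2 had an unadjusted p under 0.05 in limma (7.23% of all), and none passed the adjusted threshold in limma, edgeR or DESeq2 (0.0% of all in limma). These were Pnoc, with an interaction of -0.87 (SE 0.365, unadjusted p = 0.0381, adjusted p = 0.665), and Oprd1, with 1.10 (SE 0.474, unadjusted p = 0.0418, adjusted p = 0.665). Pnoc was 0.55 higher with CUMS on water and 0.32 lower with CUMS on krill oil on the log2 scale, and Oprd1 was 0.80 lower and 0.30 higher. In the 10 libraries the 3 members that met the criteria (4.13% of all tested genes did) were Penk (-2.04, SE 0.477, adjusted p = 0.266 in limma), Pdyn (-1.76, SE 0.407, adjusted p = 0.264) and Oprk1 (-1.57, SE 0.292, adjusted p = 0.159), none past the adjusted threshold (0.145% of all genes were). Over the alternatives, the adjusted p of the interaction ran from 0.260 to 1 for Penk, from 0.264 to 1 for Pdyn and from 0.138 to 1 for Oprk1. All 14 striatal markers had a negative interaction in the 10 libraries with an unadjusted p under 0.05 in limma, with a median of -2.33. For the 12 tested hypothalamic markers the median was -1.27, where 8 were negative with such a p and 2 were positive. Such a p was found, in both directions, for 1606 of 21393 tested genes. The part of these lists in the members' interactions was not tested.

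Some markers of brain regions were highest in the same libraries as Penk, Pdyn and Oprk1, while Pnoc and Oprl1 were highest in C_O72 and Oprd1 in MS_O46. In MS_W31 and MS_W75, the striatal genes Drd1 (15.8 and 26.0 FPKM), Drd2 (24.4 and 32.2), Adora2a (22.9 and 33.1) and Tac1 (19.6 and 36.5) had their highest values of the 12 libraries, as did Penk, Pdyn and Oprk1. In the 3 C_W brains, Drd1 was 2.51 to 3.85 and Drd2 0.602 to 4.35 FPKM. All 14 striatal markers had a higher mean log2 level in MS_W than in C_W, with a median log2FC of 1.57. Of these, 6 had an unadjusted p under 0.05 in limma (10.5% of all tested genes) and 0 passed the adjusted threshold (0.00467% of all). In the 10 libraries all 14 had such a p (15.4% of all) and 12 passed the adjusted threshold (1.15% of all). There, 12 were higher in C_O than in C_W with such a p (4.06% of all), and all 14 without overlap (19.3% of all). In MS_W vs. MS_O of the 10 libraries, 8 were lower in MS_O with such a p (8.54% of all) and 10 without overlap (22.3% of all). The mean log2(FPKM + 1) over the list was 1.86 to 2.63 in C_W, 1.71 to 3.70 in C_O, 1.83 to 4.75 in MS_W and 3.20 to 3.98 in MS_O, and the list summed to 96.3 to 166 FPKM in C_W and 97.1 to 739 FPKM in MS_W. The part of the striatal list in the differences of Penk, Pdyn and Oprk1 was not tested. In bulk tissue the brain regions sampled, the number of cells of a type and the RNA per cell cannot be told apart.

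Markers of the cortex and the olfactory bulb also differed between groups. In C_W vs. MS_W, 0 of 10 cortex markers were higher in MS_W, with a median log2FC of -1.38. Of them, 6 were lower with an unadjusted p under 0.05 in limma (10.5% of all tested genes in both directions). Without overlap, 8 were lower (24.6% of all in both directions). Of the same 10 markers, 7 had an unadjusted p under 0.05 (15.4% of all) and 2 passed the adjusted threshold (1.15% of all) in the 10 libraries, with a median of -0.92. The mean log2(FPKM + 1) over the cortex list was 4.19 to 4.58 in C_W, 2.19 to 4.71 in C_O, 2.16 to 3.40 in MS_W and 2.99 to 4.24 in MS_O. Of the 7 olfactory bulb markers, all had an unadjusted p under 0.05 in limma in C_O vs. MS_O (8.88% of all tested genes did), where 0 of the 14 striatal markers did. None of the 7 passed the adjusted threshold (0.00467% of all). The score of the bulb list was 1.17 to 3.17 in C_W, 0.567 to 2.13 in C_O, 0.790 to 3.39 in MS_W and 2.52 to 4.70 in MS_O. In the 10 libraries all 7 were again higher in MS_O than in C_O without overlap (26.8% of all tested genes in both directions), with a median log2FC of 2.09. The part of both lists in the members' differences was not tested.

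**Figure D3:**
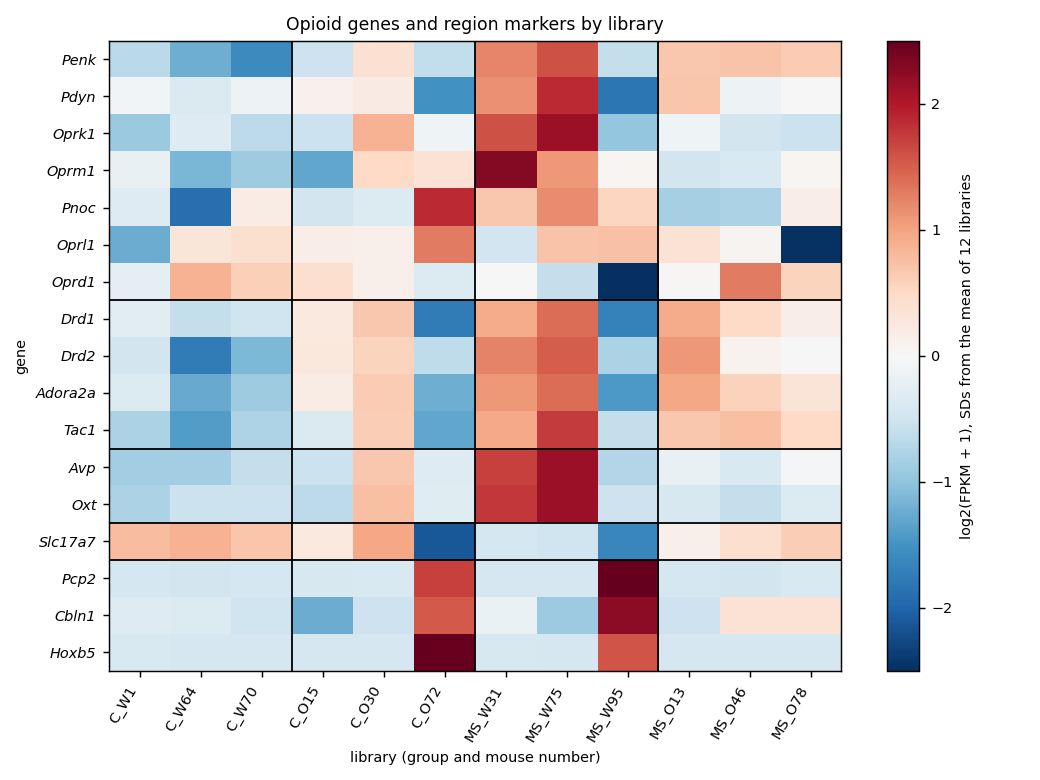
log2(FPKM + 1) of the 7 members and of region markers (y axis) in the 12 libraries (x axis), in SDs from the mean of each gene, with colours limited to 2.5 SDs. From the top, the blocks are the members, striatal genes (Drd1, Drd2, Adora2a, Tac1), hypothalamic peptide genes (Avp, Oxt), the cortical gene Slc17a7, and cerebellar and hindbrain genes (Pcp2, Cbln1, Hoxb5). Penk, Pdyn and Oprk1 are red in MS_W31 and MS_W75 together with the striatal and hypothalamic genes, and Pcp2, Cbln1 and Hoxb5 are red in C_O72 and MS_W95.

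Penk and Pdyn can also be set against a striatal gene of the same library. The ratio of Penk to Ppp1r1b, a phosphatase regulator of striatal projection neurons, was 1.29 to 1.56 in C_W, 1.03 to 2.02 in C_O, 1.56 to 2.05 in MS_W and 1.19 to 2.88 in MS_O. Against Adora2a, an adenosine receptor of the neurons that carry Drd2, Penk had a ratio of 19.9 to 67.7 in C_W, 15.3 and 14.1 in MS_W31 and MS_W75 and 184 in MS_W95, 11.6, 13.4 and 97.3 in C_O15, C_O30 and C_O72, and 11.4 to 24.0 in MS_O. The pair with the most Penk thus lay below C_W in its ratio to Adora2a and above C_W in its ratio to Ppp1r1b. That of Pdyn to Ppp1r1b was 0.150 to 0.286 in C_W, 0.138 and 0.155 in MS_W31 and MS_W75 and 0.0330 in MS_W95. A ratio within a library shows only how unequal the changes were. Against Drd1, Pdyn had a ratio of 2.34 to 3.01 in C_W, 0.875 to 1.56 in the other brains apart from C_O72 and MS_W95, and 30.6 and 12.5 in these, where Drd1 was 0.0807 and 0.144 FPKM.

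The hypothalamic peptide genes Avp and Oxt, which encode vasopressin and oxytocin, had 32.3 and 20.2 FPKM in MS_W31 and 59.3 and 32.7 FPKM in MS_W75. In the other 10 libraries Avp was at most 7.00 and Oxt at most 5.31 FPKM, both in C_O30, the library with the third highest Oprk1. Hcrt, Pmch, Ghrh, Sim1 and Nkx2-1 were also highest in MS_W31 or MS_W75. The rest of the hypothalamic list peaked elsewhere, with Trh (53.0 FPKM) and Crh (7.99 FPKM) highest in MS_O78 and Cartpt (28.8 FPKM) in MS_W95. Gal (12.1 FPKM) and Otp (3.24 FPKM) were highest in C_O72 and Agrp (0.629 FPKM) in C_O30. Over 13 hypothalamic markers the mean log2(FPKM + 1) was 0.553 to 0.762 in C_W, 0.535 to 1.33 in C_O, 1.11 to 2.72 in MS_W and 0.900 to 1.43 in MS_O, and up to 7 of the 13 markers were below 0.1 FPKM in a C_W library. All 12 that could be tested had a higher mean log2 level in MS_W than in C_W, with a median log2FC of 1.23. Of these, 8 had an unadjusted p under 0.05 in limma (10.5% of all tested genes) and 6 had groups without overlap (24.6% of all). In limma 0 passed the adjusted threshold, and 5 did in the 10 libraries (1.15% of all). In MS_W vs. MS_O of the 10 libraries, 7 of the 12 were lower in MS_O with an unadjusted p under 0.05 in limma (8.54% of all). There, 4 passed the adjusted threshold (0.271% of all), and 3 of the 12 had a higher mean log2 level in MS_O. The part of these genes in the values of Oprk1 was not tested.

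**Figure D4:**
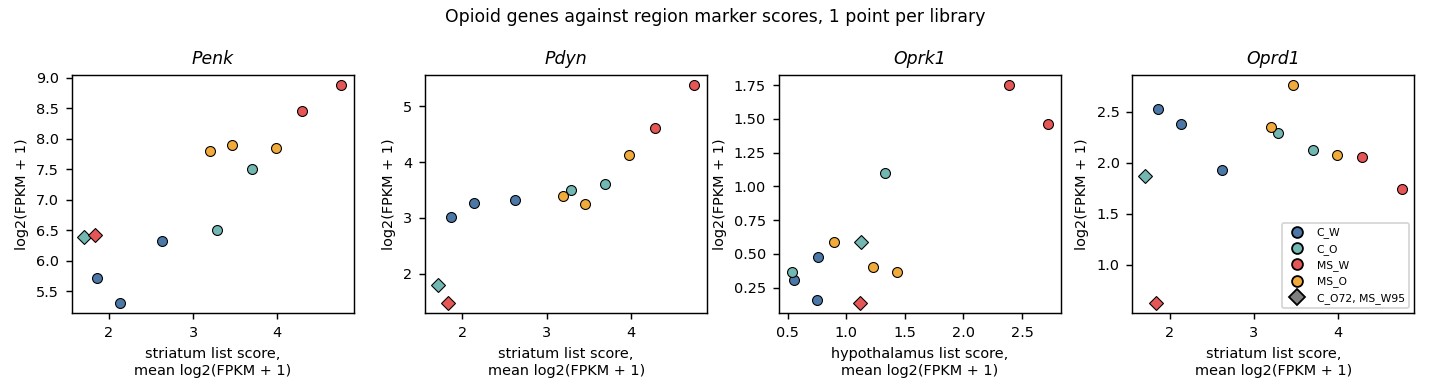
log2(FPKM + 1) of Penk, Pdyn, Oprk1 and Oprd1 (y axes) against the mean log2(FPKM + 1) of a region marker list (x axes, striatum or, for Oprk1, hypothalamus), with 1 point per library coloured by group and diamonds for C_O72 and MS_W95. The pair with the highest striatum scores, 4.29 and 4.75, is the pair with the highest Penk and Pdyn, while Oprd1 is not highest there.

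The genes most like each member in their pattern were ranked by Pearson's r of log2(FPKM + 1) over the 12 libraries, among 13620 or 13621 candidates with a mean of at least 1 FPKM, and these r are descriptions of libraries that share their tissue and depth. For Penk they were Cacng4 (r = 0.972), Rasgrp2 (0.962), Smarcd3 (0.955), Slc35d3 (0.948) and Plppr3 (0.941). Those of Pdyn were Bcr (0.971), Stn1 (0.970), Grid1 (0.968), Dclk3 (0.963) and Gpr155 (0.963). For Oprk1, Oxt (0.976) and Avp (0.967) came first, followed by Prkch (0.907), Nipal3 (0.905) and 1500009L16Rik (0.903). Pnoc was most like Gm13611 (0.931), Crip1 (0.927), Rnase4 (0.926), Mrpl17 (0.912) and Map3k11 (0.906), and Oprm1 most like Nnat (0.959), Tmeff2 (0.928), Psme1 (0.923), Entpd6 (0.922) and Cmtm6 (0.913). Oprd1 was most like Gm37711 (0.925), Tet3 (0.919), Ncoa3 (0.915), Htr3a (0.905) and Rai14 (0.903), whose r over the 10 libraries was 0.657 to 0.829. Oprl1 had the lowest likeness, with Zfp868 (0.894), Msl3 (0.885), Gm13502 (0.854), Rab4b (0.842) and Dock9 (0.825).

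Of the genes for peptide processing and breakdown, some were higher and others lower in MS_W than in C_W. Of 16 such genes, Pomc (the precursor of beta-endorphin) included, 3 had an unadjusted p under 0.05 in C_W vs. MS_W (10.5% of all tested genes did), all higher in MS_W, and none passed the adjusted threshold in limma. The median log2FC of the 16 was 0.10, beside 0.06 for all genes. Groups did not overlap for 4 of them that were higher and 3 that were lower in MS_W (24.6% of all tested genes in both directions). The lower ones were Pcsk1 (8.86 FPKM in C_W and 5.71 FPKM in MS_W), Pcsk2 (63.8 and 33.6 FPKM) and Dpp3 (4.97 and 4.41 FPKM). Their unadjusted p in limma was 0.0826, 0.0625 and 0.169. Ece2, an endothelin-converting enzyme that also cleaves neuropeptides, had 3.35, 3.10 and 2.60 FPKM in C_W and 7.77, 7.64 and 12.2 FPKM in MS_W, without overlap. Its log2FC was 1.32 (SE 0.345, adjusted p = 0.279 in limma), and C_O72 with 10.4 FPKM was close to MS_W95.

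Qpct, which forms the pyroglutamate end of some peptides, was higher with CUMS in both settings. It had 3.90, 3.65 and 3.82 FPKM in C_W, 3.37, 4.04 and 3.72 FPKM in C_O, 7.07, 7.17 and 4.94 FPKM in MS_W and 4.83, 7.07 and 6.91 FPKM in MS_O, so that every stressed brain was above every unstressed one. The log2FC was 0.61 (SE 0.159, adjusted p = 0.278 in limma) in C_W vs. MS_W and 0.61 (SE 0.159, adjusted p = 0.479) in C_O vs. MS_O. Ace, a peptidase that can degrade enkephalins, averaged 8.88 FPKM in C_O, with 17.5 FPKM in C_O72 alone, and 2.95 FPKM in MS_O (log2FC -1.20, SE 0.571). Anpep, an aminopeptidase, averaged 0.838 FPKM in C_W and 1.39 FPKM in C_O (log2FC 0.37, SE 0.129, adjusted p = 0.908 in limma). For MS_W vs. MS_O the list had 0 genes with an unadjusted p under 0.05, and the nearest was Npepps, another aminopeptidase, with 19.2 ± 0.824 FPKM in MS_W and 16.7 ± 0.699 FPKM in MS_O (log2FC -0.19, SE 0.0865, adjusted p = 0.819).

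Of 33 genes for receptor coupling, 31 were found and tested, and they had 4 higher and 1 lower with an unadjusted p under 0.05 in C_W vs. MS_W, 4 and 1 in C_O vs. MS_O, 0 and 1 in C_W vs. C_O and 0 and 2 in MS_W vs. MS_O. Of all tested genes 10.5%, 8.88%, 3.55% and 6.09% had such a p in these comparisons, in both directions together. None of the 31 passed the adjusted threshold in limma. In C_W vs. MS_W, 4 were higher and 8 lower without overlap (24.6% of all tested genes in both directions). The 8 were Rgs4 (161 FPKM in C_W and 77.5 FPKM in MS_W), Rgs7, Gnb1, Gnaz, Cacna2d1, Kcnj3, Kcnj6 and Kcnj9. Such counts were 2 and 2 in C_O vs. MS_O (12.2% of all) and 1 and 1 in C_W vs. C_O (9.42%). In MS_W vs. MS_O they were 3 and 2 (12.3%). Kcnj5, a subunit of the potassium channels that opioid receptors open, had 0.137, 0.153 and 0.161 FPKM in C_W, 0.0533, 0.214 and 0.124 FPKM in C_O, 0.849, 0.623 and 0.473 FPKM in MS_W and 0.215, 0.186 and 0.142 FPKM in MS_O. All 3 MS_W brains, MS_W95 included, were above all 9 other brains. The log2FC of Kcnj5 was 0.51 (SE 0.089, adjusted p = 0.121 in limma) in C_W vs. MS_W and -0.47 (SE 0.089, adjusted p = 0.258) in MS_W vs. MS_O, the smallest p of the list in each. The more abundant subunits of these channels on the list went the other way in C_W vs. MS_W. Kcnj3 averaged 7.65 FPKM in C_W and 4.91 FPKM in MS_W, Kcnj6 2.55 and 1.26 FPKM, and Kcnj9 45.3 and 25.8 FPKM. Their unadjusted p in limma was 0.0478, 0.0569 and 0.0507.

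Among the other coupling genes, the inhibitory G protein subunit Gnai2 averaged 34.9 FPKM in C_W and 44.8 FPKM in MS_W (log2FC 0.36, SE 0.128, adjusted p = 0.385 in limma), without overlap. Its relative Gnai1 averaged 64.8 FPKM in C_W, 50.4 FPKM in C_O and 69.3 FPKM in MS_O, with a log2FC of -0.36 (SE 0.131, adjusted p = 0.908 in limma) in C_W vs. C_O and 0.45 (SE 0.131, adjusted p = 0.479) in C_O vs. MS_O, each without overlap. The receptor kinase gene Grk5 averaged 4.37 FPKM in MS_W and 2.97 FPKM in MS_O (log2FC -0.42, SE 0.153, adjusted p = 0.790 in limma), without overlap. Arrb1, beta-arrestin 1, lay at 2 separate levels, from 3.49 to 6.84 FPKM in 6 libraries and from 17.1 to 23.6 FPKM in the other 6. All 3 C_O libraries were at the lower level and the other groups were divided between both, with a log2FC of -1.38 (SE 0.646, adjusted p = 0.908 in limma) in C_W vs. C_O.

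In the 10 libraries 4 of the 31 coupling genes passed the adjusted threshold in C_W vs. MS_W, where 1.15% of all tested genes did. They were Gng7 (log2FC 2.26, SE 0.243, adjusted p = 0.00589 in limma), Adcy5 (1.84, SE 0.211, adjusted p = 0.00766), Rgs9 (2.73, SE 0.334, adjusted p = 0.0104) and Kcnj5 (0.59, SE 0.0836, adjusted p = 0.0172), named here because their number is small. Rgs9 and Adcy5 are also on the striatal list. In the 12 libraries their adjusted p was 0.121 for Kcnj5 and 0.536 to 0.635 for the others.

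**Figure D5:**
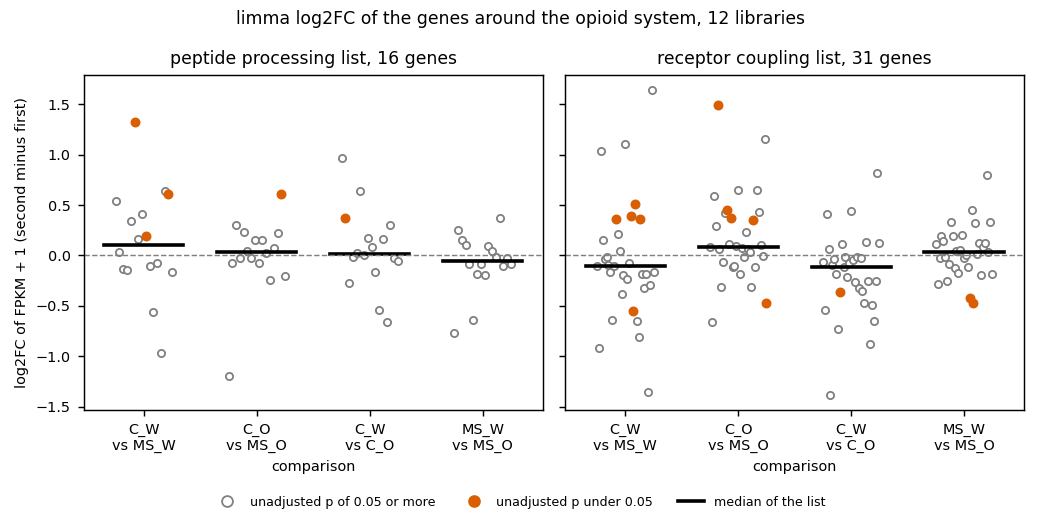
log2FC (y axis, difference of mean log2(FPKM + 1), second minus first group) of the 16 peptide processing genes (left) and the 31 receptor coupling genes (right) in the 4 pairwise comparisons (x axis) for 12 libraries, with 1 point per gene, filled where the unadjusted p of limma was under 0.05, and a bar at the median. The medians lie between -0.11 and 0.10, near those of all tested genes, which lie between -0.02 and 0.06.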

How the data were processed

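Poly(A) RNA of 12 mouse brains (3 per group) was sequenced, and the groups were read from the sample titles. To make the FPKM values, the authors trimmed reads with cutadapt 1.9, aligned them to mm10 with HISAT2 2.0.4, assembled and merged transcripts with StringTie 1.3.4d and estimated expression with Ballgown (versions per the labels). A gene without an estimate was listed by the authors at 0.0001 FPKM. The estimated count values deposited by the authors beside them were derived from coverage, since in 1598 genes of a single transcript they followed FPKM and length to a median of 0.0362%, and they were rounded for edgeR and DESeq2.

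From these files, log2(FPKM + 1) of the 21393 genes that averaged 0.1 FPKM or more was fitted with limma 3.58.1 under R 4.3.3 (lmFit and a trended eBayes, 4 group means, 12 libraries), with Benjamini-Hochberg adjusted p. Of the 7 members, 6 were tested. With 3 mice per group and 1 library per mouse, p-values measure the spread between libraries, which includes their differences in region markers. The fits were also run on simulated data with known changes. Of limma at the spread of these libraries, no minimum recovery of the changes was required there. The members, gene lists and tests were chosen with earlier results of these data known. All members were named, as were the 2 genes of the smallest p of each pathway list in each comparison and the 5 genes of the highest r with a member. Of the genes so chosen, 1 coupling gene is not reported here. Gene symbols Adrbk1 and Adrbk2 on the coupling list are older names of genes on the same list.

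As alternatives, the pseudocount was set to 0.1 or 0.01, the filter was dropped or raised to a mean of 1 FPKM, libraries were quantile normalized or centred on their medians, only the 2 groups of a comparison were fitted, eBayes was made robust, array weights were used, edgeR 4.0.16 or DESeq2 1.42.0 replaced limma, and each library was left out once. For edgeR and DESeq2 the DEG criteria took the p and the log2 fold change of these tools on the estimated counts, not group means of FPKM. The fit of 10 libraries was added after seeing the data. Gene bounds and coding sequences were from GENCODE M21 (GRCm38), whose bounds matched 93.9% of the genes in the table. Python 3.11.15 with pandas 2.3.3 and matplotlib 3.10.9 made the tables and figures.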

Additional observations from a re-analysis of the deposited data

How the results depend on the processing

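Counts of members past the DEG criteria and the direction of Pdyn depended most on the processing. In C_W vs. MS_W the 2 members past the criteria became 1 with pseudocounts of 0.1 and 0.01, with a mean FPKM of at least 1 and with a fit of only 2 groups, 3 with quantile normalization, array weights, DESeq2 and the 10 libraries, and ranged from 1 to 3 when single libraries were left out. The 0 members past the adjusted threshold in that comparison became 2 with array weights, 1 with DESeq2, 3 in the 10 libraries and 0 to 2 with single libraries left out, 2 of them without MS_W95. In C_W vs. C_O the 0 members past the criteria became 1 with a fit of only 2 groups, array weights, DESeq2 and the 10 libraries, and 0 to 1 with single libraries left out (1 without MS_W95), the range also found in C_O vs. MS_O (1 without C_O30). In MS_W vs. MS_O the 1 member became 0 with a fit of only 2 groups and with edgeR, and 2 with array weights, DESeq2 and the 10 libraries, with 0 (without MS_O46) to 2 (without MS_W95) when single libraries were left out. In the interaction the 2 members became 1 with pseudocounts of 0.1 and 0.01 and with no filter, and 0 to 3 with single libraries left out, 0 of them without C_W64, C_O72 or MS_O46. Pdyn reversed to -0.0057 in C_O vs. MS_O with array weights, to 0.26 (array weights) and 0.36 (10 libraries) in C_W vs. C_O, and in the interaction, where it was -0.0047, to 0.17 and 0.19 with pseudocounts of 0.1 and 0.01, 0.0051 with quantile normalization and 0.0018 with libraries centred on their median. With single libraries left out, Pdyn ranged from -0.15 to 1.80 in C_W vs. MS_W, -0.55 to 0.36 in C_W vs. C_O, -1.40 to 0.54 in MS_W vs. MS_O and -1.18 to 0.77 in the interaction, Penk from -0.82 to 0.41 in MS_W vs. MS_O and Oprl1 from -0.017 to 0.48 in C_W vs. MS_W, with a change of sign in each. Of the members' other log2FC values under these alternatives, none changed sign. A mean FPKM of at least 1 leaves 5 members and no test of Oprk1, and the other causes were not tested. No paired analysis was possible because the mouse numbers are not shared between groups. Depth limits Oprm1, with 14 to 64 estimated counts per library, and Oprk1 in C_W1 and MS_W95, with 93 and 67.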

Other observations

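Pomc, the precursor of beta-endorphin, was low in these brains, with 0.699 ± 0.0883 FPKM in C_W, 1.25 ± 1.10 FPKM in C_O, 2.14 ± 2.38 FPKM in MS_W and 1.53 ± 0.735 FPKM in MS_O (SD, n = 3), and its log2FC in C_W vs. MS_W was 0.64 (SE 0.463, adjusted p = 0.619 in limma).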
